A study of Mus musculus and Homo sapiens with 59 samples.

Results

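The genes described here encode the ESCRT machinery, the annexins and a few further proteins of plasma membrane repair, 36 genes chosen by name from a fixed list. All 36 were present among the 19407 rows of the mouse table, and their human counterparts were all present among the 22192 rows of the human table. They fall into 8 groups: ESCRT-0 (Hgs, Stam, Stam2), ESCRT-I (Tsg101, Vps28, Vps37a, Vps37b, Vps37c), ESCRT-II (Vps25, Vps36, Snf8), ESCRT-III (11 genes: Chmp1a, Chmp1b, Chmp2a, Chmp2b, Chmp3, Chmp4b, Chmp4c, Chmp5, Chmp6, Chmp7 and Ist1), the VPS4 ATPases (Vps4a, Vps4b), ALIX and ALG-2 (Pdcd6ip and Pdcd6), 7 annexins, and Dysf, Syt7 and Smpd1.

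As background, ESCRT complexes bend and cut membranes away from the cytosol. ESCRT-0 and ESCRT-I gather ubiquitinated cargo on endosomes, ESCRT-II links them to ESCRT-III, whose subunits polymerize at the membrane neck, and the VPS4 ATPases take the polymer apart. The same ESCRT-III filaments are recruited to calcium-flooded wounds and to pores opened by MLKL or gasdermin D, where they shed damaged membrane. Annexins bind acidic phospholipids when calcium rises and help to plug lesions, and lysosomes that fuse with the membrane through synaptotagmin 7 release acid sphingomyelinase.

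The study opened the plasma membrane of 4 established cell lines with a pore-forming construct or with digitonin and measured polyadenylated RNA in 59 libraries. There were 35 libraries of NIH3T3 cells (mouse fibroblasts), 16 of LLC cells (from a mouse lung carcinoma), and 4 each of the human tumour lines HT29, from colon, and BxPC3, from pancreas. Cells without a construct are called parental. MLKL cells carry hMLKL1–181-2Fv, an amino-terminal fragment of human MLKL, the necroptosis effector, joined to a domain that the drug AP20187 dimerizes. GSDMD cells carry mGSDMD1-276-HBD, an amino-terminal fragment of mouse gasdermin D, the pyroptosis pore protein, joined to a hormone-binding domain that 4OHT (4-hydroxytamoxifen) releases. AP20187 was given at 100 nM for 1 h to parental NIH3T3 cells and to MLKL cells of both mouse lines, and 4OHT at 50 nM for 2.5 h to parental LLC cells and to GSDMD cells of both mouse lines. Cells labelled as without construct received digitonin, which permeabilizes cholesterol-rich membranes: mouse lines 55 µg/mL for 3 h, human lines 40 µg/mL for 2 h. Further NIH3T3 cells that all carry the MLKL construct were given AP20187 in calcium-free DMEM, with control siRNA (siCTR) or the siRNA labelled siPKC, or in the lines labelled noko (control) and p65ko (p65 knockout). Other cultures were in DMEM. Of the 30 groups, 29 have 2 libraries, and siPKC with AP20187 has 1. The labels do not say whether a line is a clone or a pool, or whether the libraries of a group came from separate cultures. The p-values therefore measure only the spread between libraries, and that spread may be technical.

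Levels are in TPM (transcripts per 1000000), a share of the RNA of a library scaled by transcript length, so levels can be set side by side between genes. A change is the difference of log2(TPM + 1) between treated and untreated libraries, a scale that understates the change of weakly expressed genes. A gene rose or fell where limma's moderated test gave a Benjamini-Hochberg adjusted p under 0.05 over all genes tested in the comparison. Statements that treated and untreated libraries do not overlap describe groups of 2 libraries. They mostly concern members named because they passed, and add no support to the test. Because a share of RNA moves when other RNA moves, counts of members that passed are also given with median centring, in which each library's median over genes is set equal. In bulk samples, fewer cells of a type and less RNA per cell cannot be told apart.

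Replicate libraries of a group were alike (Pearson r of log2(TPM + 1) across genes between 0.989 and 0.995). Of 9 fibroblast markers, 8 were at 1 TPM or more on average in NIH3T3 cells and 4 in LLC cells, where Thy1 was at 0. Of 6 epithelial markers in the mouse data, 3 were at 1 TPM or more on average in LLC cells. Krt8 was there at 80.7 to 326 TPM, Krt18 at 159 to 280 TPM and Krt19 at 0.79 to 8.70 TPM. Epcam, Cdh1 and Krt7 reached at most 0.051, 0.11 and 0.20 TPM in LLC cells. All 7 epithelial markers were at 1 TPM or more on average in both human lines. Leukocyte markers summed to at most 25.2 TPM in the mouse lines and 21.9 TPM in BxPC3 cells, while in HT29 cells LYZ alone was at 1750 to 1856 TPM and ADGRE1 and TYROBP were at 0. Rows for small and ribosomal RNAs took 0.644% to 6.78% of mouse TPM, 11.6% to 12.8% in HT29 and 22.1% to 23.3% in BxPC3 libraries, and the members were recomputed without them. Rela, which encodes p65, was at 49.7 and 49.2 TPM in untreated noko and 13.6 and 14.1 TPM in untreated p65ko libraries. Prkca, a protein kinase C gene, was at 31.0 and 32.7 TPM with siCTR and 7.46 and 8.05 TPM with siPKC. Gsdmd was at 376 and 377 TPM in untreated LLC GSDMD libraries and 22.6 TPM in both untreated parental LLC libraries. In the 4 LLC libraries of the digitonin set, labelled as without construct, Gsdmd was at 333 and 337 TPM untreated and 326 and 336 TPM with digitonin, so these libraries go against their label, and counts over several comparisons are also given without them. The NIH3T3 digitonin set held Gsdmd at 13.2 and 13.9 TPM untreated, where untreated parental cells held 6.14 and 5.44 TPM and untreated MLKL cells 12.4 and 10.96 TPM.

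In resting cells Anxa1, Anxa2 and Anxa5 were the most abundant members and the other repair genes among the least. In NIH3T3 cells (18 untreated libraries) Anxa2 had a median of 2039 TPM (1742 to 2305), Anxa1 of 631 TPM (368 to 782) and Anxa5 of 428 TPM (363 to 486), and Anxa6 was the lowest annexin at 49.3 TPM (36.9 to 84.4). The range of Anxa2 lay above all others, while those of Anxa1 and Anxa5 overlapped. LLC cells (8 untreated libraries) held Anxa1 at 1386 TPM (944 to 2358), Anxa2 at 1202 TPM (1116 to 1489), Anxa5 at 865 TPM (672 to 941) and Anxa6 at 7.03 TPM (5.91 to 11.6). There the ranges of Anxa1 and Anxa2 overlapped.

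The ESCRT subunits lay within a narrower band. Chmp4b, the main filament-forming ESCRT-III subunit, had the highest median of its group at 130.3 TPM (113 to 151) in NIH3T3 and 202 TPM (142 to 205) in LLC cells. Its relative Chmp4c was close to 0 in both, with medians of 0.104 TPM (0 to 0.328) and 0.201 TPM (0 to 0.317). In NIH3T3 cells ESCRT-II ran from Vps36 at 112 TPM (99.4 to 131) to Snf8 at 72.6 TPM (61.4 to 110.4), with ranges that overlap. Of ESCRT-I, Vps28 was highest at 88.9 TPM (67.7 to 135) and Vps37a lowest at 12.8 TPM (7.83 to 16.99), and in LLC cells these were at 97.5 TPM (71.2 to 106) and 10.1 TPM (8.23 to 11.1). ESCRT-0 was led by Hgs, its cargo-binding scaffold, at 54.5 TPM (47.7 to 68.8), above Stam at 26.3 TPM (13.8 to 34.9) and Stam2 at 26.5 TPM (17.5 to 32.1), which overlapped each other. In NIH3T3 cells Vps4b at 44.1 TPM (27.3 to 50.6) and Vps4a at 33.8 TPM (31.3 to 39.9) overlapped too. ALIX (Pdcd6ip, a bridge between cargo and ESCRT-III) was at 123 TPM (91.4 to 133) and its calcium-binding partner ALG-2 (Pdcd6) at 85.4 TPM (71.2 to 96.3).

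Dysferlin (Dysf), a calcium-binding protein of muscle membrane repair, was low in fibroblasts at 4.35 TPM (2.93 to 18.9). It was at 14.2 and 13.9 TPM in untreated parental and 18.9 and 17.6 TPM in untreated GSDMD cells, and at 3.81 and 4.02 TPM in untreated MLKL cells, so untreated parental and MLKL libraries do not overlap. Syt7, a calcium sensor of lysosome fusion, was at 0.0134 TPM (0 to 0.0697) in NIH3T3 and 2.30 TPM (1.02 to 3.40) in LLC cells. Smpd1, acid sphingomyelinase, was at 17.4 TPM (15.3 to 22.5) and 6.59 TPM (5.16 to 10.7). In the human lines ANXA2 had the highest level of all members (2943 and 2991 TPM in HT29, 2689 and 2634 TPM in BxPC3), and DYSF was listed at 0 in both untreated HT29 libraries.

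Between untreated parental lines 30 of 35 tested members differed, against 80.1% of all genes (31 and 80.5% with centring). Higher in LLC than in NIH3T3 cells were Anxa1 (log2 difference 2.27), Syt7 (1.60), Chmp4b (0.79) and Chmp1a (1.13), and lower were Anxa6 (-2.35), Dysf (-2.09) and Smpd1 (-0.68). Between untreated human lines 31 of 35 members differed, against 80.2% of all genes (31 and 80.8% with centring). SYT7 (log2 difference 2.09), ANXA6 (1.81), VPS37A (1.33) and SMPD1 (1.32) were higher in BxPC3, and ANXA4 (-1.44) and TSG101 (-1.37) lower. Both shares are near those of all genes. Untreated MLKL cells in calcium-free and in complete medium differed in 13 of 34 members, 4 higher and 9 lower without calcium, against 36.3% of all genes, and with centring in 11, 7 higher and 4 lower, against 37.3%. Without calcium, Chmp7 (-0.35), Pdcd6 (-0.27) and Anxa1 (-0.26) had the largest log2 differences downward and Stam (0.17), Hgs (0.14) and Anxa5 (0.14) the largest upward. That count was 7 without the first untreated library in complete medium and 8 without either calcium-free library.

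No member passed the test in parental NIH3T3 cells given AP20187 or parental LLC cells given 4OHT. Parental NIH3T3 cells with 4OHT and parental LLC cells with AP20187 were not measured. The responses of NIH3T3 GSDMD and LLC MLKL cells thus have no such control in their own line. AP20187 in parental NIH3T3 cells called 0 of 34 members with limma, with and without centring (3 at an unadjusted p under 0.05: Snf8, Anxa4 and Smpd1), where 0.304% of all genes passed. 4OHT in parental LLC cells called 0 of 35 with limma, with and without centring (3 at an unadjusted p under 0.05: Hgs, Vps37a and Vps37b), where 0.864% of all genes passed. Changes of members lay between -0.15 and 0.15 and between -0.08 and 0.17 on the log2 scale. Stam, for example, went from 26.2 and 26.5 to 24.8 and 24.6 TPM in NIH3T3 and from 18.9 and 20.5 to 21.7 and 21.2 TPM in LLC cells.

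MLKL dimerization in NIH3T3 cells raised 4 of 34 members (Stam, Vps37b, Vps37c, Ist1) and lowered 7 (Chmp6, Vps28, Snf8, Vps36, Chmp7, Vps4a, Anxa11). Of all genes 15.8% rose and 16.5% fell. With centring 4 rose and 11 fell (14.9% and 19.1% of all genes). The total of 11 was 6 without the first untreated library and 7 without the second. The same dimerization in calcium-free medium called 0 of 34 members with limma, with and without centring, and 2 (Stam and Ist1) at an unadjusted p under 0.05, where 5.69% of all genes passed.

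In the siCTR, siPKC, noko and p65ko comparisons AP20187 called more members, and a larger share of all genes, than in the MLKL cells above. This difference was not tested. With siCTR 9 members rose and 14 fell (13.7% and 51.8% of all genes), and with centring 16 rose and 6 fell (28.0% and 27.1%). With siPKC 8 rose and 11 fell (10.5% and 37.5%), and with centring 12 and 4 (19.2% and 19.9%). In noko cells 8 rose and 14 fell (10.6% and 55.5%), and with centring 21 and 4 (27.6% and 23.3%). In p65ko cells 8 rose and 14 fell (8.99% and 50.4%), and with centring 19 and 2 (24.5% and 18.9%). In these 4 comparisons the median change over all genes lay between -0.22 and -0.14 on the log2 scale and that of members between -0.08 and -0.05. Falls outnumbered rises without centring and rises outnumbered falls with it.

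GSDMD release moved most members in both lines. In NIH3T3 GSDMD cells 9 of 34 rose and 23 fell (20.0% and 58.6% of all genes), and with centring 14 rose and 9 fell (34.7% and 37.0%). In LLC GSDMD cells 10 of 34 rose and 20 fell (27.9% and 54.0%), and with centring 13 and 18 (34.9% and 45.7%). The median log2 change of members was -0.20 in NIH3T3 (all genes -0.29) and -0.32 in LLC cells (all genes -0.25).

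With digitonin 13 members rose and 15 fell in NIH3T3 cells (39.3% and 34.2% of all genes), and with centring 9 rose and 20 fell (31.3% and 46.3%). In the LLC libraries labelled as without construct 13 rose and 9 fell (20.3% and 32.2%), and 13 and 9 with centring (19.7% and 35.0%). MLKL dimerization in LLC cells raised 3 members, Stam, Vps37b and Anxa11, and lowered 0 (5.48% and 2.08% of all genes), and with centring 2 rose and 0 fell (5.18% and 3.24%). Without any 1 of its 4 libraries the count was 1. The titles of its 2 treated libraries end in the same replicate number and 1 of them spells the construct differently, and both were placed by their construct and treatment labels. The members were not tested as a list, and nothing particular to them is read from these counts.

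**Figure D1:**
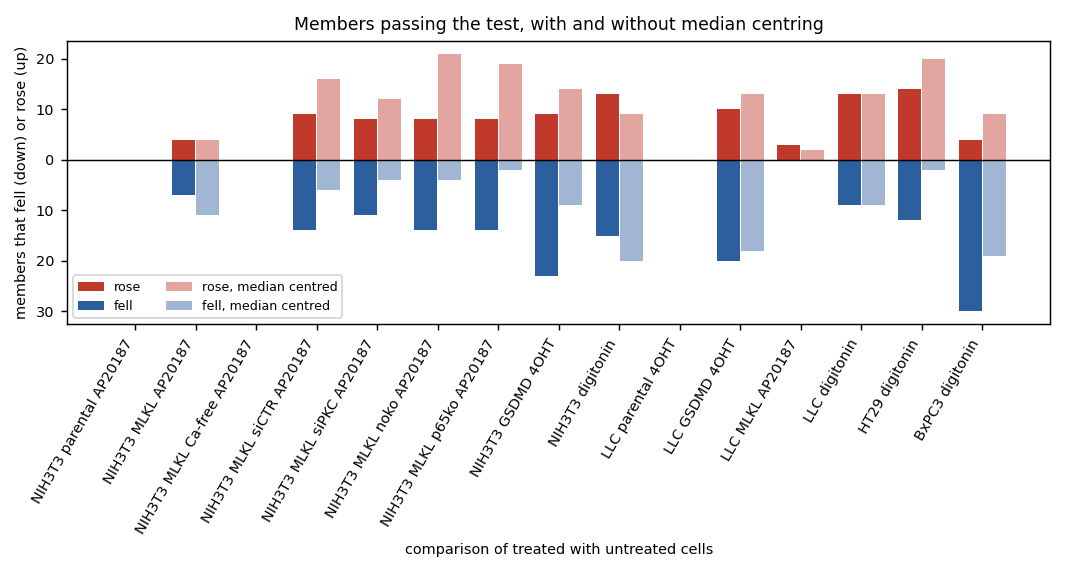
Number of members that rose (red, above 0) or fell (blue, below 0) in each of the 15 comparisons of treated with untreated cells at an adjusted p under 0.05, without (dark) and with (light) median centring. Parental cells and MLKL cells in calcium-free medium have no bar, and in the siCTR, siPKC, noko and p65ko comparisons rises outnumber falls only with centring.

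Across the 9 comparisons in which a construct or digitonin opened mouse cells in complete medium (siPKC, with its single treated library, left aside), 7 of 34 members tested rose in at least 5 both with and without centring and 5 fell in at least 5. Of all genes tested in at least 5 of these comparisons, 11.2% rose and 19.7% fell by the same rule. Stam and Vps37b rose in 9 of 9, Vps37c and Ist1 in 8, Anxa5 in 7, Chmp4b in 6 and Stam2 in 5. In LLC MLKL cells, however, Stam and Vps37b did not both pass when any library of that comparison was left out. Chmp6 and Chmp7 fell in 8 of 9, Vps25 and Snf8 in 6 and Chmp1a in 5. Over the 8 comparisons without the LLC digitonin set, Stam and Vps37b rose in 8, Vps37c and Ist1 in 7, Anxa5 in 6, Chmp4b in 5 and Stam2 in 4, while Chmp6 and Chmp7 fell in 7, Vps25 and Snf8 in 5 and Chmp1a in 4. By the rule of at least 5, here out of 8, 6 of 34 members rose and 4 fell. Of 11380 genes tested, 1090 rose and 1847 fell by it. In these 9 comparisons no ESCRT-0 gene fell and no ESCRT-II gene rose, with or without centring. The share of all genes that never fell, or never rose, in them was not counted. Nothing particular to these groups is therefore read from this. Several comparisons share a cell line, and those of MLKL cells share the construct.

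**Figure D2:**
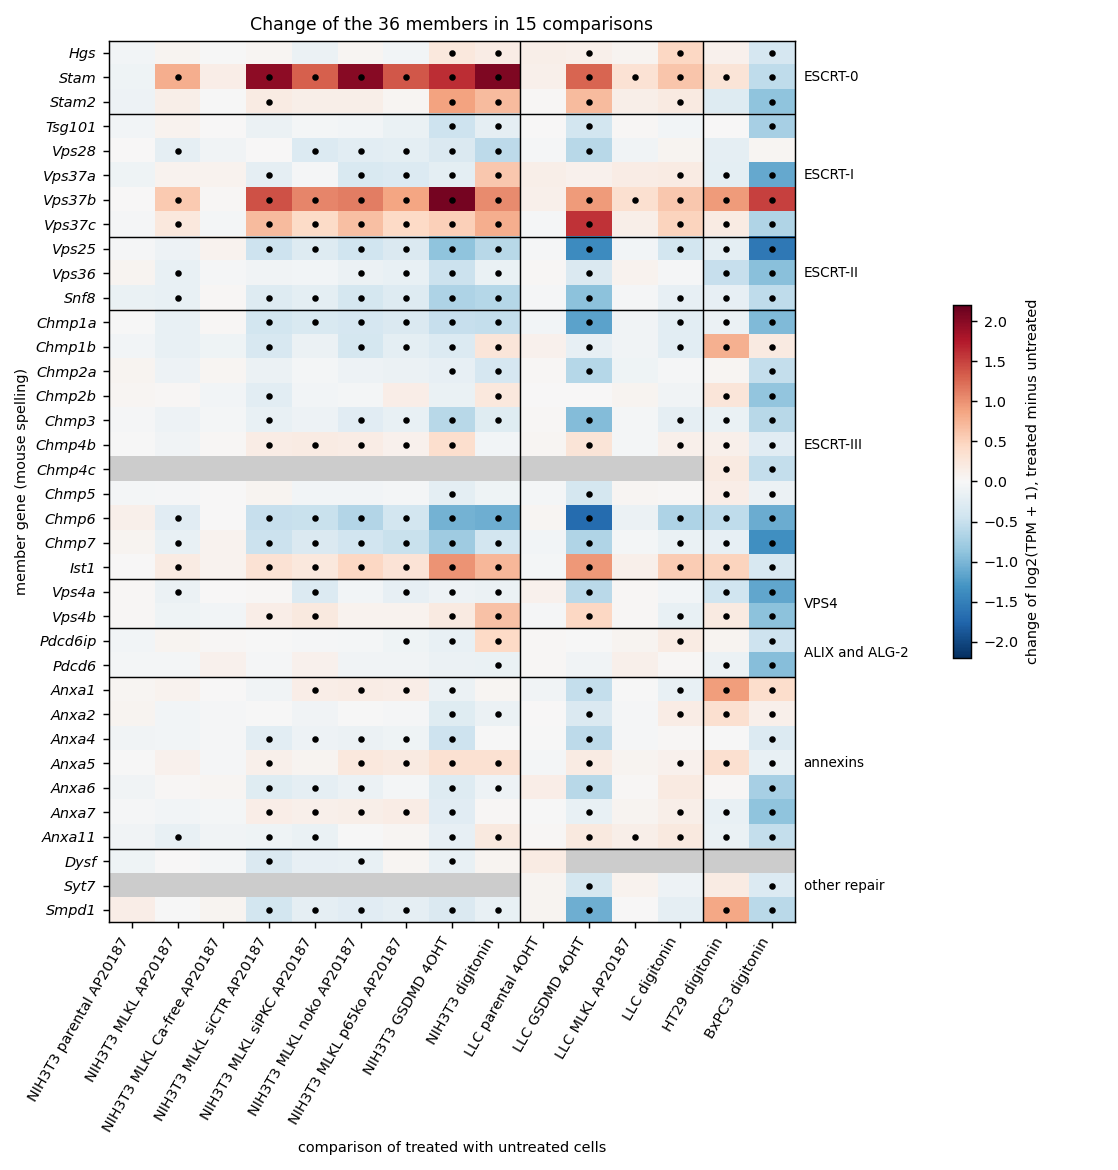
Change of log2(TPM + 1), treated minus untreated, of the 36 members (rows, by group) in 15 comparisons (columns, by line), with dots where the adjusted p was under 0.05 without centring and grey where a member was too weakly expressed to be tested. Over the mouse lines Stam, Vps37b, Vps37c and Ist1 form red rows and Vps25, Snf8, Chmp6 and Chmp7 blue rows, and the BxPC3 column is blue except for VPS37B, CHMP1B, ANXA1, ANXA2 and VPS28.

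Of ESCRT-0, Stam rose most. It encodes an adaptor that binds ubiquitin and partners Hgs on endosomes (mm10 chr2:14074098-14149634, + strand). It went from 24.3 and 24.7 to 44.5 and 42.5 TPM in dimerized MLKL cells (log2 change 0.80, SE 0.05, adjusted p 7.94e-11). With siCTR it went from 25.4 and 26.8 to 104 and 105 TPM (1.96), and in noko cells from 26.4 and 26.2 to 108 and 109 TPM (2.01). Treated libraries lay well above untreated ones in each. GSDMD release took Stam from 33.4 and 34.9 to 112 and 102 TPM in NIH3T3 cells (log2 change 1.62) and from 20.4 and 18.4 to 49.1 and 47.5 TPM in LLC cells (1.27). Digitonin took it from 13.8 and 16.1 to 63.7 and 67.1 TPM in NIH3T3 cells (2.06), the NIH3T3 set with the lowest untreated Stam, and from 16.4 and 13.4 to 22.8 and 23.6 TPM in the LLC set (0.62). The smallest change was in LLC MLKL cells, from 17.3 and 18.02 to 21.3 and 23.3 TPM (0.32, adjusted p 0.0388), with no overlap between the groups.

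Stam2, the paralogue of Stam, moved less. GSDMD release took it from 27.9 and 25.5 to 50.6 and 49.3 TPM in NIH3T3 cells (log2 change 0.88) and from 21.02 and 21.2 to 35.7 and 33.96 TPM in LLC cells (0.69), and digitonin from 17.5 and 18.2 to 29.1 and 30.2 TPM in NIH3T3 cells (0.70). In MLKL cells its change of 0.12 did not pass (adjusted p 0.133). Hgs rose in 4 of the 9 comparisons and in 3 of them also with centring (3 and 2 of the 8 without the LLC digitonin set), most without centring with LLC digitonin, from 52.5 and 53.8 to 72.1 and 74.2 TPM (log2 change 0.45). Its treated libraries were above the untreated ones there.

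Among the subunits of ESCRT-I, which hands cargo on to the later complexes, Vps37b and Vps37c rose. Vps37b (mm10 chr5:124004641-124032270, - strand) went from 51.6 and 49.9 to 72.2 and 80.6 TPM in dimerized MLKL cells (log2 change 0.58, SE 0.05, adjusted p 2.2e-08), from 57.4 and 58.2 to 158 and 151 TPM with siCTR (1.40) and from 71.7 and 73.1 to 159 and 161 TPM in noko cells (1.13). Its largest change was in NIH3T3 GSDMD cells, from 39.6 in both to 166 and 183 TPM (2.11). It rose from 61.0 and 58.2 to 126 and 120.3 TPM with NIH3T3 digitonin (1.04) and from 39.8 and 42.3 to 76.7 and 82.1 TPM in LLC GSDMD cells (0.93). The lowest treated value was above the highest untreated one in each. In LLC cells Vps37b also rose with MLKL, from 36.5 and 34.8 to 45.5 and 46.3 TPM (0.36), and with digitonin, from 44.1 and 48.05 to 68.1 and 72.5 TPM (0.60).

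Vps37c (mm10 chr19:10688735-10714627, + strand) had its largest change in LLC GSDMD cells, from 14.9 and 16.8 to 47.6 and 52.5 TPM (log2 change 1.60, SE 0.08, adjusted p 1.63e-09), and a small one in MLKL cells, from 22.1 and 23.7 to 26.4 and 27.5 TPM (0.22, adjusted p 0.0155). In LLC MLKL cells, from 22.3 and 21.98 to 25.6 and 23.3 TPM, it did not pass (adjusted p 0.348). The third paralogue, Vps37a, fell without centring in 4 of the 9 comparisons (4 of the 8), for example from 14.6 and 15.1 to 11.4 and 11.9 TPM in noko cells (log2 change -0.33), and in 0 with centring. It rose with NIH3T3 digitonin, from 7.83 in both to 11.9 and 12.8 TPM (0.60), and with LLC digitonin (0.19). Tsg101, the core ubiquitin-binding subunit, fell from 80.7 and 84.2 to 65.1 and 55.6 TPM in NIH3T3 GSDMD cells (-0.45), from 85.4 and 81.8 to 62.2 and 63.1 TPM in LLC GSDMD cells (-0.41) and with NIH3T3 digitonin (-0.20). Vps28 fell in 6 of the 9 and in 3 of them also with centring (6 and 3 of the 8), most in LLC GSDMD cells, from 71.2 and 78.05 to 50.1 and 47.03 TPM (-0.61).

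**Figure D3:**
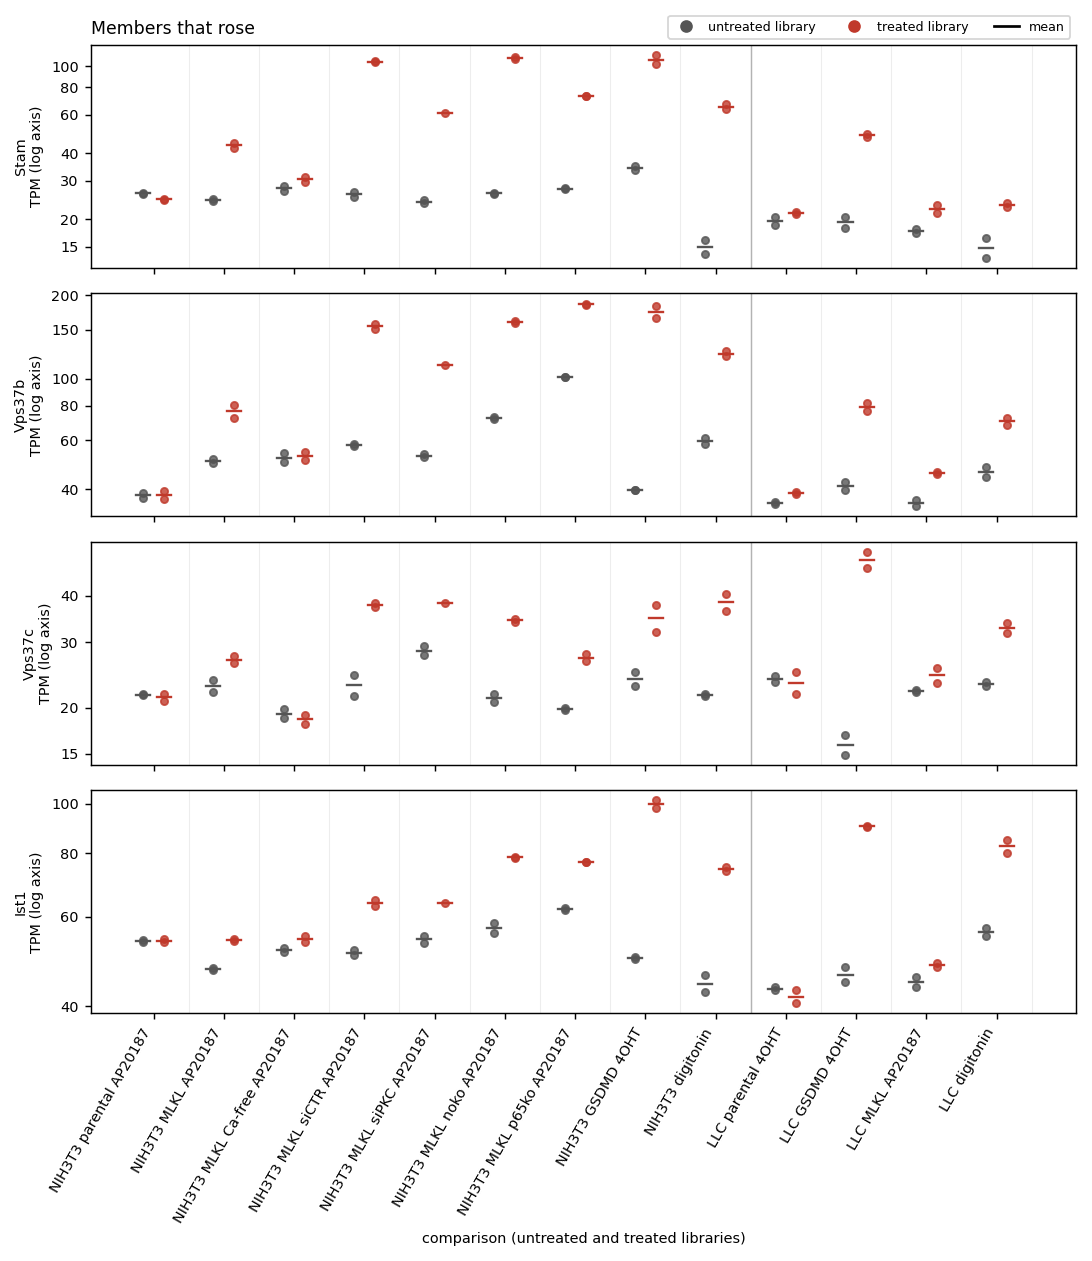
TPM (log axis) of Stam, Vps37b, Vps37c and Ist1 in every mouse library, untreated in grey and treated in red, with a bar at each group mean, over 13 comparisons. The red points stand clear above the grey ones in the siCTR, noko, GSDMD and digitonin comparisons of NIH3T3 cells and in LLC GSDMD cells, and grey and red points of Vps37b overlap in parental NIH3T3 cells and in calcium-free medium.

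None of the 3 ESCRT-II genes was called higher in any of the 15 comparisons, and the share of all genes never called higher was not counted. In LLC MLKL cells 0 of the 3 fell. In p65ko cells 3 fell without centring and 0 with it. Vps25 (mm10 chr11:101253707-101259549, + strand), the subunit that binds CHMP6, went from 112 and 113 to 46.4 and 39.5 TPM in LLC GSDMD cells (log2 change -1.38, SE 0.06, adjusted p 1.25e-09) and from 133 and 132 to 67.1 and 75.4 TPM in NIH3T3 GSDMD cells (-0.89). With NIH3T3 digitonin it went from 126 and 136 to 85.4 and 84.5 TPM (-0.61), and with siCTR from 145 and 131 to 105 and 95.99 TPM (-0.45). The groups did not overlap in any of these. Snf8 fell from 88.9 and 89.3 to 49.1 and 45.3 TPM in LLC GSDMD cells (log2 change -0.90) and from 64.4 and 61.4 to 41.3 and 36.8 TPM in NIH3T3 GSDMD cells (-0.68). Vps36, the ubiquitin-binding subunit, fell in 6 of the 9 comparisons and in 4 of them also with centring (6 and 4 of the 8), most without centring in NIH3T3 GSDMD cells, from 101 and 105 to 76.8 and 71.2 TPM (-0.47). How reads of Vps25 were split from those of Ramp2 is uncertain, since 1103 of its 1642 exon bases overlap that gene on the same strand.

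Within ESCRT-III, Chmp6 and Chmp7, which start the polymer, fell, while the abundant Chmp4b rose in 6 of the 9 comparisons. Chmp6 (mm10 chr11:119913441-119919548, + strand) went from 60.7 and 56.6 to 17.6 and 17.5 TPM in LLC GSDMD cells (log2 change -1.69, SE 0.05, adjusted p 3.89e-11), the largest fall of any tested member in the 13 mouse comparisons. It went from 43.8 and 44.8 to 19.3 and 22.7 TPM in NIH3T3 GSDMD cells (-1.05), from 46.96 and 47.7 to 21.2 and 22.9 TPM with NIH3T3 digitonin (-1.07) and from 47.7 and 49.9 to 30.2 and 30.1 TPM with LLC digitonin (-0.68). In MLKL cells it went from 50.3 and 52.1 to 42.7 TPM in both libraries (-0.26). Treated and untreated libraries were separate in each.

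Chmp7, which also works at the nuclear envelope, fell from 19.1 and 20.8 to 10.4 and 12.2 TPM in NIH3T3 GSDMD cells (log2 change -0.77), from 28.4 and 28.1 to 17.8 and 17.3 TPM in LLC GSDMD cells (-0.66) and from 21.96 and 22.6 to 16.7 and 16.04 TPM in noko cells (-0.42). Chmp1a, a late-acting subunit, fell from 119.9 and 121 to 50.4 and 55.6 TPM in LLC GSDMD cells (-1.17) and from 56.5 and 51.7 to 35.98 and 39.2 TPM in NIH3T3 GSDMD cells (-0.51). No pair of groups overlapped here. In LLC MLKL cells neither Chmp6 (-0.12, adjusted p 0.187) nor Chmp7 (-0.04, adjusted p 0.694) passed.

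**Figure D4:**
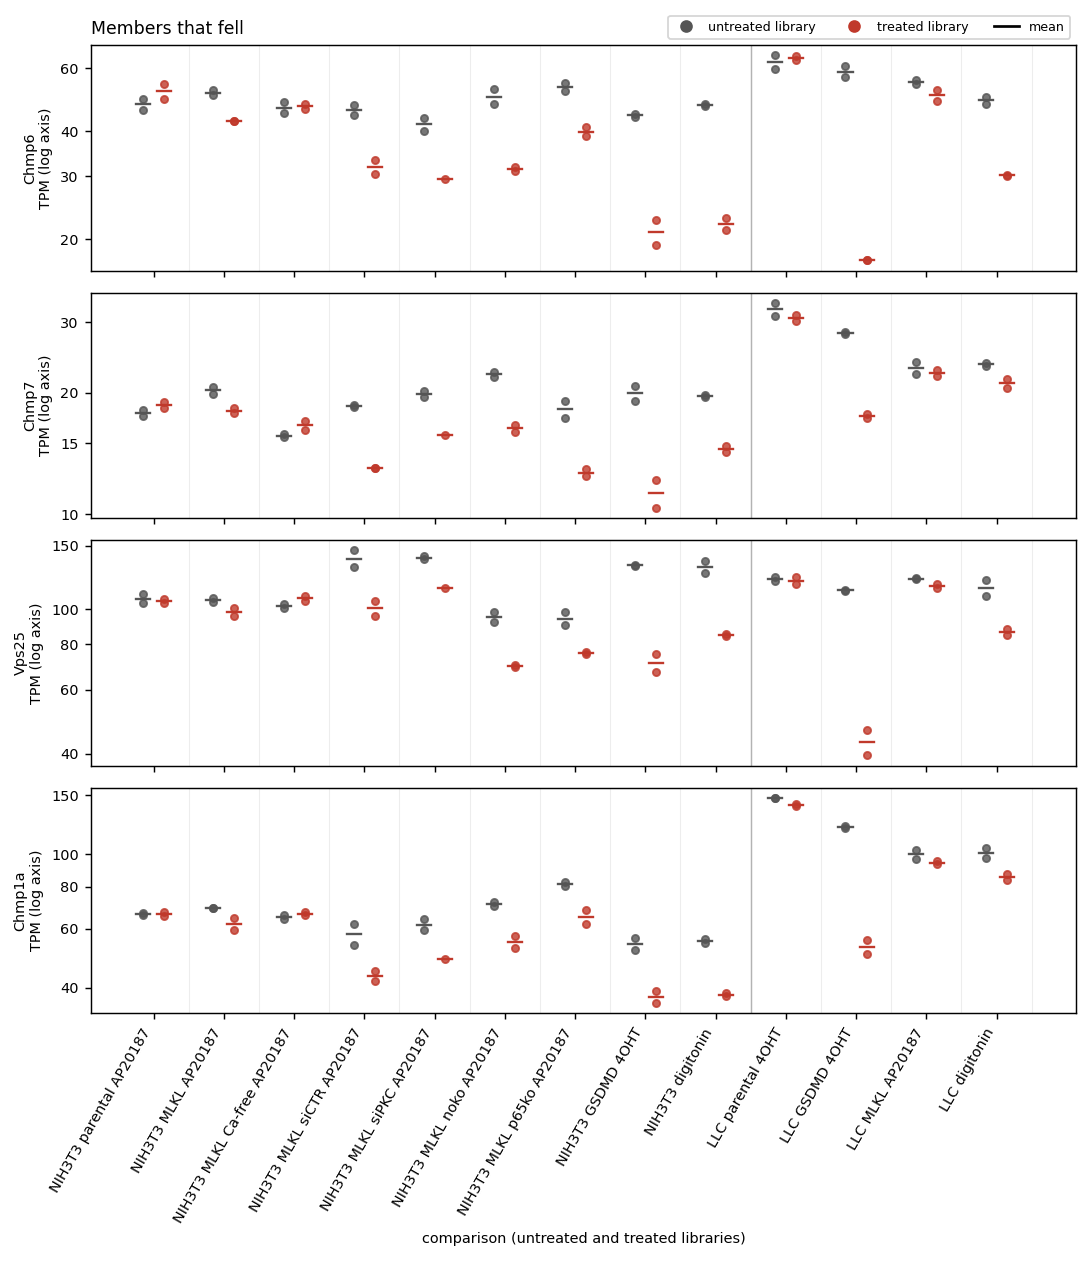
TPM (log axis) of Chmp6, Chmp7, Vps25 and Chmp1a in every mouse library, untreated in grey and treated in red, with a bar at each group mean, over 13 comparisons. The widest gaps for Chmp6, Vps25 and Chmp1a are in LLC GSDMD cells, where Chmp6 lies near 17.5 TPM after 4OHT, and none of the 4 genes passed in parental cells.

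Ist1, which recruits VPS4 and a microtubule-severing enzyme (mm10 chr8:109671325-109693260, - strand), rose from 49.5 and 49.9 to 102 and 97.99 TPM in NIH3T3 GSDMD cells (log2 change 0.99, SE 0.03, adjusted p 1.03e-16), from 47.7 and 44.6 to 89.9 and 90.7 TPM in LLC GSDMD cells (0.95) and from 42.6 and 46.1 to 75.2 and 73.7 TPM with NIH3T3 digitonin (0.74). In MLKL cells it went from 47.5 and 47.1 to 54.3 and 53.7 TPM (0.19). These groups did not overlap. Chmp4b rose from 135 and 128 to 172 and 168 TPM in NIH3T3 GSDMD cells (0.37) and from 142 and 144 to 175 and 176 TPM in LLC GSDMD cells (0.29). With NIH3T3 digitonin, from 149 and 151 to 141 and 147 TPM, it did not pass without centring (-0.05) and fell with it (-0.20).

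Of the remaining ESCRT-III genes, Chmp3 fell in 7 of the 9 comparisons and in 4 of them also with centring (6 and 3 of the 8), most in LLC GSDMD cells, from 83.7 and 82.5 to 42.9 and 42.3 TPM (log2 change -0.95). Chmp2a fell in 3 and in 2 of them also with centring (3 and 2 of the 8), most in the same cells, from 109 and 106 to 68.5 and 69.7 TPM (-0.63), and Chmp5 there from 67.5 and 69.4 to 53.7 and 51.1 TPM (-0.38). Chmp1b fell in 6 without centring and in 2 of them also with it (5 and 1 of the 8), for example from 21.7 and 20.6 to 15.3 and 16.4 TPM in noko cells (-0.39), a fall that did not pass with centring. These subunits did not share one direction. Chmp2b passed without centring only with siCTR, where it fell (-0.23), and with NIH3T3 digitonin, where it rose (0.23), and neither passed with centring. Chmp4c, at no more than 0.595 TPM in any mouse library, was not tested in mouse cells.

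The 2 VPS4 paralogues moved apart in LLC GSDMD cells and with NIH3T3 digitonin. Vps4b rose from 58.1 and 54.8 to 79.1 and 75.6 TPM in LLC GSDMD cells (log2 change 0.45), where Vps4a fell from 43.2 and 41.1 to 27.98 and 27.2 TPM (-0.59). With NIH3T3 digitonin Vps4b went from 27.3 and 29.8 to 44.2 and 45.6 TPM (0.64) and Vps4a from 32.4 and 32.3 to 28.3 and 30.9 TPM (-0.13). In NIH3T3 GSDMD cells Vps4a fell without centring (-0.12) and rose with it (0.16). Vps4b rose in 4 of the 9 comparisons both with and without centring (4 of the 8). It fell in 1, the LLC digitonin set, also with centring. ALIX (Pdcd6ip) rose with digitonin in NIH3T3 cells, from 91.4 and 92.3 to 123 and 125 TPM (0.43), and in the LLC set, from 77.3 in both to 87.2 and 87.6 TPM (0.18), while in NIH3T3 GSDMD cells it fell without centring (-0.17) and rose with it (0.10). Of the 9 comparisons ALG-2 (Pdcd6) passed without centring with NIH3T3 digitonin alone, where it fell from 94.6 and 93.9 to 83.3 and 86.3 TPM (-0.15), and its changes lay between -0.15 and 0.11 on the log2 scale.

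The annexins, which include the most abundant members, changed by -0.61 to 0.34 on the log2 scale over the 9 comparisons. Anxa5, which forms a lattice on exposed phosphatidylserine, rose in 7 of the 9 comparisons, from 401 and 372 to 487 and 482 TPM in NIH3T3 GSDMD cells (log2 change 0.33), from 469 and 486 to 596 and 611 TPM with NIH3T3 digitonin (0.34) and from 429 and 437 to 505 and 507 TPM in noko cells (0.22). The treated libraries were above the untreated ones in each. Anxa1 fell in LLC GSDMD cells from 1474 and 1446 to 1049 and 992 TPM (-0.52) and rose in noko cells from 639 and 650.3 to 718 and 719 TPM (0.16), and in NIH3T3 GSDMD cells it fell without centring (-0.13) and rose with it (0.14). Anxa2, which bridges membranes with S100a10, fell from 1901 and 1893 to 1584 and 1552 TPM in NIH3T3 GSDMD cells (-0.27), where it did not pass with centring, and lay between -0.31 and 0.17 on the log2 scale over the 9. Both directions thus occur for Anxa1 and Anxa2.

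Anxa4 fell in LLC GSDMD cells from 79.9 and 76.1 to 54.5 and 50.2 TPM (log2 change -0.57) and Anxa6 from 7.05 and 8.78 to 4.50 and 5.18 TPM (-0.61), the largest falls of either in the mouse comparisons. In noko cells both fell without centring (Anxa4 -0.13, Anxa6 -0.12) and rose with it (0.10 and 0.11). Anxa7 rose in 4 of the 9 both with and without centring (3 of the 8), for example from 97.95 and 98.1 to 108 and 111 TPM in p65ko cells (0.16). Anxa11, which couples lysosomes to RNA granules, rose from 78.7 and 80.6 to 92.7 and 92.2 TPM in LLC GSDMD cells (0.21) and fell from 70.1 and 69.1 to 61.4 and 62.9 TPM in MLKL cells (-0.16). In noko cells 3 of the 7 annexins rose and 2 fell, and in p65ko cells 3 rose and 1 fell. With centring all 7 rose in both, where 27.6% and 24.5% of all genes rose.

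Of the other repair genes, Smpd1 fell from 5.16 and 6.12 to 2.36 and 1.92 TPM in LLC GSDMD cells (log2 change -1.08, SE 0.10, adjusted p 4.05e-07) and from 16.2 and 17.9 to 12.6 TPM in both libraries with siCTR (-0.41). It fell in 6 of the 9 comparisons and in 3 of them also with centring (6 and 3 of the 8). Dysf fell with siCTR, from 4.25 and 4.28 to 3.13 and 3.27 TPM (-0.33), in noko cells (-0.16) and in NIH3T3 GSDMD cells (-0.15), and passed in none of the 3 with centring. Of the mouse lines Syt7 was tested only in LLC cells, where it fell after GSDMD release, from 3.40 and 3.07 to 2.43 and 2.06 TPM (-0.39).

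Whether these responses differ between conditions was tested directly, as a difference of log2 changes. Responses of MLKL and parental NIH3T3 cells to AP20187 differed in 6 of 34 members, against 20.5% of all genes (8 and 22.8% with centring). Stam (0.89, adjusted p 7.86e-09), Vps37b (0.57) and Ist1 (0.18) were higher in MLKL cells and Chmp6 (-0.37), Vps36 (-0.22) and Anxa2 (-0.12) lower. Responses of GSDMD and parental LLC cells to 4OHT differed in 30 of 35, against 71.8% of all genes (28 and 69.5% with centring), with the largest differences for Chmp6 (-1.73), Vps37c (1.63), Vps25 (-1.36) and Stam (1.16).

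In calcium-free medium Stam and Vps37b responded less to MLKL dimerization than in complete medium. Stam went from 28.3 and 27.04 to 31.4 and 29.8 TPM (log2 change 0.14, adjusted p 0.136), and this differed from the response in complete medium by -0.66 (SE 0.07, adjusted p 7.46e-07). Vps37b went from 54.1 and 49.95 to 54.7 and 50.8 TPM, groups that overlap, and its response differed by -0.56 (SE 0.07, adjusted p 9.94e-06). In all 4 of 34 members differed between media, against 21.9% of all genes, the others being Vps37c (-0.27, adjusted p 0.0488) and Chmp7 (0.24, adjusted p 0.0361), neither of which passed with centring, where 2 members and 22.4% of all genes differed. The count without centring was 2 without any of 3 libraries: the first untreated or the first dimerized one in complete medium, or the second dimerized one without calcium.

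With siPKC, Stam went from 23.7 and 24.4 to 61.4 TPM in the single treated library, less than with siCTR (difference of log2 changes -0.65, SE 0.08, adjusted p 3.34e-05). Vps37b (-0.33), Vps4a (-0.32) and Vps28 (-0.30) also differed, 4 members of 34 in all, against 8.29% of all genes (5 and 9.41% with centring). The lone treated library is assumed to vary like the other groups. In p65ko cells Stam went from 27.5 and 27.8 to 72.8 and 73.3 TPM, less than in noko cells (-0.63, SE 0.07, adjusted p 1.26e-05). It was the single member of 34 to differ, against 4.10% of all genes, and with centring Vps37b (-0.29) and Ist1 (-0.18) differed too, 3 members against 4.45% of all genes. Vps37b in p65ko cells went from 101 in both to 184 and 186 TPM and in noko cells from 71.7 and 73.1 to 159 and 161 TPM, so its untreated level was higher in p65ko cells.

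The human lines responded differently to digitonin. In HT29 cells 14 of 35 members rose and 12 fell (16.5% and 44.0% of all genes), and with centring 20 rose and 2 fell (27.6% and 28.9%). The total of 26 was 16 without the first untreated library or without either digitonin library. In BxPC3 cells 4 rose and 30 fell (23.7% and 56.9%), and with centring 9 and 19 (41.3% and 36.9%). The median log2 change of members was 0.03 in HT29 (all genes -0.16) and -0.56 in BxPC3 (all genes -0.37). The responses of the lines differed in 33 of 35 members, against 64.1% of all genes, and with centring in 24, 2 higher and 22 lower in BxPC3, against 59.7%. How many of all genes rose in both lines, fell in both or moved in opposite directions was not counted. Nothing particular to the members is therefore read from such counts below.

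The members that rose in both lines, with and without centring, were VPS37B, CHMP1B, ANXA1 and ANXA2. VPS37B went from 89.5 and 86.2 to 167 and 171 TPM in HT29 (log2 change 0.93) and from 64.1 and 64.6 to 187 and 183 TPM in BxPC3 (1.51). ANXA1 went from 412 and 424 to 797 and 788 TPM in HT29 (0.92) and from 626 and 619 to 793 and 827 TPM in BxPC3 (0.38). CHMP1B went from 35.1 and 34.7 to 62.8 and 59.4 TPM in HT29 (0.79) and from 28.5 and 28.8 to 32.04 and 34.2 TPM in BxPC3 (0.20). In the mouse digitonin sets Vps37b rose too, whereas Chmp1b fell in the LLC set (-0.24) and rose in NIH3T3 cells without centring (0.27), where it did not pass with it. Dose and time of digitonin differ between the mouse and human cells.

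In both lines 12 members fell without centring, each with a lower value in BxPC3. With centring 11 of these fell in BxPC3 but only VPS36 and VPS4A in both lines, and 5 of the 12 had a positive change in HT29 (0.01 to 0.04 on the log2 scale). VPS25 went from 81.96 and 88.7 to 28.7 and 27.6 TPM in BxPC3 (log2 change -1.57) and from 102 and 103 to 91.6 and 85.7 TPM in HT29 (-0.21, which did not pass with centring). In BxPC3 CHMP7 went from 31.6 and 30.9 to 11.6 and 11.7 TPM (-1.35), VPS4A from 91.97 and 95.1 to 41.8 and 42.1 TPM (-1.14) and VPS37A from 22.7 and 21.6 to 9.95 and 9.37 TPM (-1.12). CHMP6, from 13.04 and 14.7 to 6.62 and 5.36 TPM (-1.09), was the one of these 12 for which the difference between lines did not pass without centring (adjusted p 0.0611). The BxPC3 libraries were separate in each. PDCD6 went from 319.9 and 317 to 162 and 168 TPM (-0.94) and ANXA7 from 78.6 and 80.5 to 42.02 and 43.4 TPM (-0.88) in BxPC3.

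In opposite directions without centring moved 10 members, all up in HT29 and down in BxPC3. The share of all genes that did so was not counted. Over all genes the median log2 change was also lower in BxPC3 (-0.37) than in HT29 (-0.16). STAM went from 18.6 and 18.9 to 22.9 and 22.96 TPM in HT29 (log2 change 0.28) but from 16.3 and 15.5 to 10.2 and 10.9 TPM in BxPC3 (-0.55). SMPD1 went from 0.739 and 1.15 to 2.31 and 2.63 TPM in HT29 (0.84) but from 3.89 and 3.73 to 2.23 and 2.14 TPM in BxPC3 (-0.60), and CHMP2B from 47.2 and 48.3 to 58.7 and 56.4 TPM (0.26) but from 37.3 and 39.4 to 19.02 and 22.04 TPM (-0.87). CHMP4C, barely present in the mouse lines, went from 34.1 and 33.7 to 39.3 and 39.03 TPM in HT29 (0.20) but from 26.61 and 26.60 to 18.1 and 18.4 TPM in BxPC3 (-0.52). The others were VPS37C, CHMP4B, CHMP5, IST1, VPS4B and ANXA5. With centring 7 members moved in opposite directions: STAM, VPS37C, CHMP2B, CHMP4C and VPS4B of these, and TSG101 and CHMP2A. CHMP4B (0.18), CHMP5 (0.30) and ANXA5 (0.27) rose in BxPC3 with centring, and IST1 and SMPD1 did not pass there. SYT7 fell in BxPC3 (-0.29) and did not pass in HT29 (0.19), while with centring it rose in HT29 (0.35) and did not pass in BxPC3.

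**Figure D5:**
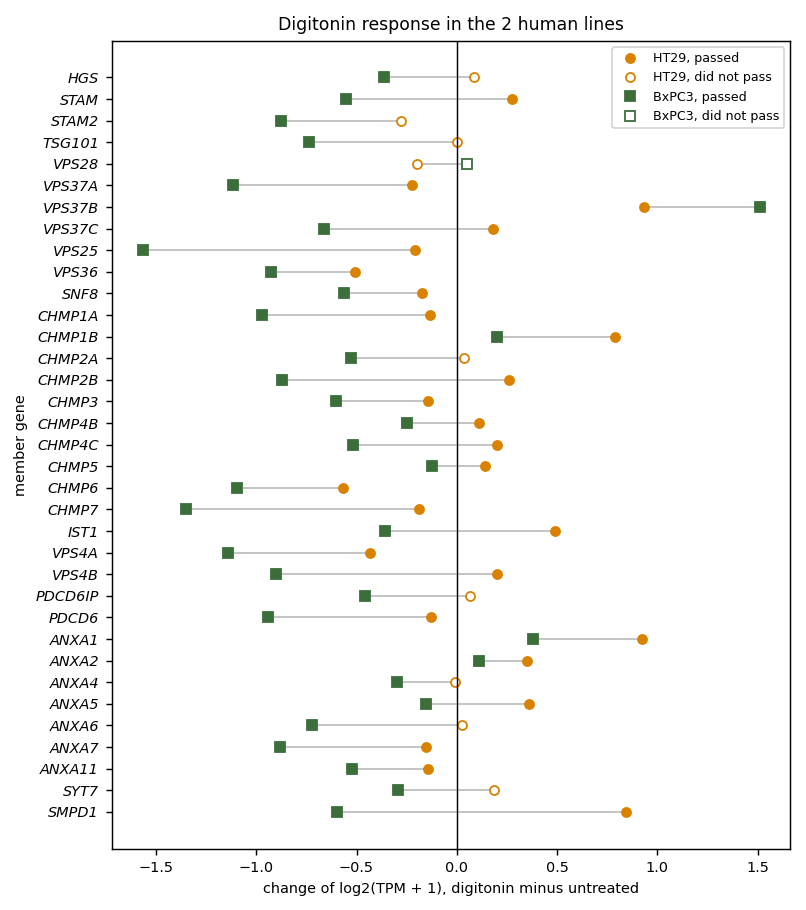
Change of log2(TPM + 1), digitonin minus untreated, of the 35 tested members in HT29 (orange circles) and BxPC3 (green squares), filled where the adjusted p was under 0.05. BxPC3 lies left of HT29 for all members but VPS37B and VPS28, with VPS25 lowest at -1.57.

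Genes of the same pathways outside the list also moved in both directions. Of 17 other ESCRT subunits and regulators, 4 rose and 12 fell in NIH3T3 GSDMD cells (5 and 10 with centring). Of all genes 20.0% and 58.6% did so there (34.7% and 37.0% with centring). In LLC GSDMD cells 6 rose and 10 fell (6 and 9), where 27.9% and 54.0% of all genes did so (34.9% and 45.7%). With NIH3T3 digitonin 7 rose and 9 fell (6 and 10), where 39.3% and 34.2% of all genes did so (31.3% and 46.3%). In BxPC3, of 16 tested, 3 rose and 8 fell without centring but 8 rose and 5 fell with it, where 23.7% and 56.9% of all genes without and 41.3% and 36.9% with centring did so. Counts over all 15 comparisons are followed by those over the 14 without the LLC digitonin set. Ubap1, an alternative ESCRT-I subunit, rose in 11 (10), with and without centring, by up to 1.49 on the log2 scale, and Sdcbp (syntenin, an ALIX partner) in 10 (9), by up to 1.66. Stambp, a deubiquitinase bound to STAM, fell in 9 (8) and also with centring in 8 (7), with a lowest log2 change of -1.83. Cc2d1b, a regulator of ESCRT-III, fell in 10 (9) and also with centring in 9 (8), with a lowest change of -1.51.

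Of other annexins and S100 partners 1 of 7 rose and 6 fell in LLC GSDMD cells (1 and 4 with centring), where 27.9% and 54.0% of all genes (34.9% and 45.7%) did so. Pef1, the ALG-2 partner, fell in 11 comparisons (10 without the LLC digitonin set) and Sri (sorcin) in 9 (8), also with centring in 10 (9) and 6 (5), with lowest log2 changes of -1.21 and -1.02. Anxa3 fell in 10 (9), but also with centring in 4 (3). S100a10, the partner of annexin A2, rose in 6 (5) and fell in 1 (1), the rises also with centring in 5 (4) and the fall in 0. Of ferlins, calpains, caveolae and EHD genes 3 of 12 rose and 9 fell in LLC GSDMD cells (3 and 8 with centring), beside the same shares of all genes. Ehd2 fell in 9 comparisons (8 without the LLC digitonin set) with and without centring and rose in 1 (1). Capn1 fell in 9 (9), but also with centring in 4 (4), and Cav2 fell in 8 (7) and rose in 1 (1), the falls also with centring in 6 (5) and the rise in 0. Cavin1 rose in 4 (3) and fell in 7 (7), the falls also with centring in 1 (1). Of lysosomal genes 6 of 12 rose and 4 fell in LLC GSDMD cells (7 and 3 with centring), again beside the shares of all genes given for these cells. In BxPC3 2 of 14 rose and 8 fell without centring but 9 rose and 4 fell with it, beside the shares of all genes given above for BxPC3. The lysosomal proteases Ctsb and Ctsl rose in 10 (9 without the LLC digitonin set) and 9 (9) comparisons and fell in 1 (1) each. Their rises held also with centring in 9 (8) and 9 (9), and the fall of Ctsl did but that of Ctsb did not. Ctsd and Tfe3, a regulator of lysosomal genes, rose in 9 (8) and 8 (8), also with centring in 8 (7) and 8 (8), and fell in 0. Without centring no gene of these lists passed in parental cells or in calcium-free medium, and with centring S100a10 (-0.15), S100a11 (-0.14) and Cav1 (-0.15) fell with 4OHT in parental LLC cells and Ctsl (-0.11) in calcium-free medium.

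The genes whose changes over the 13 mouse comparisons were most like those of Stam, among 8988 genes of at least 5 TPM on average, were Zfand5, Rap1b and Erf (Pearson r 0.976, 0.962 and 0.957). For Vps37b they were Dusp4, Irf2bp2 and Rnf19b (0.969, 0.961 and 0.953), and for Chmp6 Cenpb, Mrpl51 and Mrpl40 (0.989, 0.986 and 0.986). The comparisons share cell lines, and the changes of all genes in a library share its scale.

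Transcript length was also compared. The 7 risers had longest annotated transcripts of 1616 to 6990 bases (median 2690) and the 5 fallers of 1220 to 3348 bases (median 1764). Over all genes the median log2 change with NIH3T3 digitonin was -0.29 for transcripts under 2000 bases, -0.05 for 2000 to 4000 and 0.35 over 4000, and in LLC GSDMD cells -0.32, -0.33 and -0.11. In NIH3T3 GSDMD cells these medians were -0.29, -0.34 and -0.25. Removing the length trend of each library also removes that library's overall shift. With it 20 of 34 members passed in NIH3T3 GSDMD cells, against 32 without it and 23 with median centring alone.

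RefSeq promoter windows (GRCm38.p6, from 250 bases before to 50 after a transcript start) were found for 26 of the 36 members, 31 windows in all. They are shown for 2 members that rose, Stam and Vps37c, and 1 that fell, Vps25, because their changes in LLC GSDMD cells are among the largest of the members. Capitals mark matches, on either strand, to any of 6 motifs searched: the cyclic AMP element TGACGTCA, its core TGACG, the AP-1 site TGANTCA, the E-box CACGTG, the CCAAT box and the antioxidant element core TGACNNNGC.
Stam (chr2:14073850-14074149, + strand): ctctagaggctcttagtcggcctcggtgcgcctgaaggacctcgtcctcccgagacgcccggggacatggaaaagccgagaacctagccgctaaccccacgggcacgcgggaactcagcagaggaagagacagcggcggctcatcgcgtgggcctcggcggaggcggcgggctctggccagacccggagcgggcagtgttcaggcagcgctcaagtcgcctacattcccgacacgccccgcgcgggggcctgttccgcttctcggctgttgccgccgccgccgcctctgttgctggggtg
Vps37c (chr19:10688485-10688784, + strand): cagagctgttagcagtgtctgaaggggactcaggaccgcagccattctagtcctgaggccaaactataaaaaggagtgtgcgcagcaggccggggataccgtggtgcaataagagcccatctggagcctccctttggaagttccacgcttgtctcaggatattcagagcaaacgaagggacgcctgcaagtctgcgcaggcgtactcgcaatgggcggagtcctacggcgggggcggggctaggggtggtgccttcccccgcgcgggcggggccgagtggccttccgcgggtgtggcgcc
Vps25 (chr11:101253457-101253756, + strand): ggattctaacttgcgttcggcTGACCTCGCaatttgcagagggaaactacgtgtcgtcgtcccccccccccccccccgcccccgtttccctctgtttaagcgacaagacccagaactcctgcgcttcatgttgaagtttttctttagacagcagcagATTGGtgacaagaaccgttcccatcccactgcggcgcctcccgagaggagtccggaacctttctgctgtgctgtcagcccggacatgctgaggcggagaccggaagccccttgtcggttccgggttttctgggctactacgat
The Stam window and this Vps37c window held none of the 6, and a second Vps37c window held an AP-1 match. The Vps25 window held a CCAAT box and an antioxidant element core. Of the 31 windows of members 1 held the full cyclic AMP element, 8 its core, 4 an AP-1 site, 2 an E-box, 6 a CCAAT box and 9 an antioxidant core. Among all 32851 windows of this length the shares were 1.79%, 20.8%, 7.81%, 7.15%, 37.4% and 12.4%. A match of letters is not a bound site, and the absence of one says nothing about any factor.

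Some members share exons with other genes, so how the authors' quantification split their reads is uncertain. Of the 2908 exon bases of Hgs 2897 lie in a second gene record of the same name on the same strand. Besides these and Vps25 with Ramp2, 918 of 2789 exon bases of Vps37b overlap Hip1r and 605 of 2524 of Chmp1b an antisense gene, both on the opposite strand. Whether the library kit kept strand is not given in the sources used here.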

How the data were processed

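Polyadenylated RNA of 59 libraries was deposited as TPM (transcripts per 1000000), mouse and human lines separately. The authors made the TPM values with Salmon, and mm10 and hg19 are the builds, per the submitters' processing notes, which give no version. TPM keep no read depth, so depth is unknown and no counting interval is given. Columns were matched to samples by their titles. Both treated LLC MLKL libraries have titles that end in the same replicate number, so their numbers are names only.

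The change of log2(TPM + 1) was fitted in R 4.3.3 with limma 3.58.1 (trend), with 1 model for NIH3T3, 1 for LLC, 1 for both human lines, and 1 for all mouse libraries, which served the comparison of untreated LLC and NIH3T3 cells. Genes entered a test if 2 or more of its libraries reached 1 TPM, and p-values were Benjamini-Hochberg adjusted over all genes tested. Treated and untreated cells were compared in 15 pairs, responses in 6 and untreated cells in 3. The script was tested on simulated data. Alternatives were median centring, quantile normalization, a pseudocount of 0.1, no filter, a fit on the comparison's own libraries, a replicate block, leaving out each library, and, chosen after seeing the data, a table without small RNA rows, a correction for transcript length, and counts without the LLC digitonin set.

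The members and lists were chosen with earlier results of these data known. All 36 members are accounted for. Values per library are given, for 1 or more comparisons, for members that passed in 1 direction in at least 5 of 9 mouse comparisons both with and without centring, those that changed by 1 or more on the log2 scale, those whose responses differed, and the ends of each group's resting range as medians. Of each pathway list 4 genes with the most comparisons passed are named, ties broken by the larger median absolute change. S100a11 and Cav1 were named after their values were seen. Gene positions are from GENCODE vM21 (mm10) and promoters from RefSeq (GRCm38.p6). Tables and figures used Python 3.11.15, pandas 2.3.3, numpy 2.4.6 and matplotlib 3.10.9.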

Additional observations from a re-analysis of the deposited data

Results flagged for a closer look

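Responses to the same treatment differed between conditions by limma's test of the difference itself. The number of members that differed was 6 of 34 between MLKL and parental NIH3T3 cells, where 20.5% of all genes differed. It was 4 of 34 between calcium-free and complete medium (21.9% of all genes) and 30 of 35 between GSDMD and parental LLC cells (71.8%). Between p65ko and noko cells it was 1 of 34 (4.10%), and between BxPC3 and HT29 cells 33 of 35 (64.1%). Stam had a smaller response to MLKL dimerization in calcium-free medium (difference of log2 changes -0.664), with siPKC (-0.65) and in p65ko cells (-0.635). The siPKC value rests on a single treated library, which is assumed to vary like the other groups.

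The 10 members that moved in opposite directions in the human lines without centring had these differences of log2 changes, BxPC3 minus HT29: -0.827 for STAM, -0.842 for VPS37C, -1.13 for CHMP2B, -0.355 for CHMP4B, -0.72 for CHMP4C, -0.264 for CHMP5, -0.848 for IST1, -1.11 for VPS4B, -0.516 for ANXA5 and -1.44 for SMPD1. With centring 5 of these moved in opposite directions and 8 differed between the lines, while CHMP5 (-0.0152) and CHMP4B (-0.106) did not pass. How many of all genes moved in opposite directions was not counted. The 10 were picked by their opposite calls in the same libraries. Negative differences thus followed from the choice and add no support. BxPC3 and HT29 libraries also differed in the share of small and ribosomal RNA rows (22.1% to 23.3% against 11.6% to 12.8%). With those rows removed 34 of 35 members differed between the lines, and the 10 differences kept their call (-1.50 to -0.245). Within a line the share was similar with and without digitonin. It was 23.3% and 22.2% against 22.6% and 22.1% in BxPC3, and 11.6% in both against 12.1% and 12.8% in HT29. Removing the rows could thus change the responses little, and whether the share bears on them was not tested.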

How the results depend on the processing

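Of 350 changes and differences of the 36 members past the threshold, median centring kept the direction and call of 254, and 38 reversed, 12 of them past the threshold in the other direction. Quantile normalization reversed 13 of 350 and removing the length trend 25 of 257. A pseudocount of 0.1, no filter, own libraries and removing small RNA rows reversed 0, and leaving out a library kept 1453 of 1666 and reversed 0. The differences of Stam between media, siRNAs and p65 lines kept their call under each alternative run.

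Log2 changes that changed sign are given here. With centring these were Anxa11 0.090 and Chmp3 0.020 with siCTR, Anxa4 0.0097 with siPKC, Anxa4 0.10, Anxa6 0.11, Dysf 0.080, Vps28 0.0066 and Vps36 0.10 in noko, Anxa4 0.12, Chmp3 0.044, Pdcd6ip 0.12, Smpd1 0.0077, Vps28 0.00035, Vps36 0.039 and Vps4a 0.025 in p65ko. Further ones were Anxa1 0.14, Anxa11 0.092, Anxa7 0.030, Chmp2a 0.089, Chmp5 0.050, Dysf 0.12, Pdcd6ip 0.10, Vps37a 0.053 and Vps4a 0.16 in NIH3T3 GSDMD, ANXA11 0.021, ANXA7 0.0094, CHMP1A 0.034, CHMP3 0.022 and PDCD6 0.035 in HT29, ANXA4 0.13, ANXA5 0.27, CHMP4B 0.18, CHMP5 0.30, HGS 0.065, IST1 0.066 and SYT7 0.13 in BxPC3, Anxa7 0.042 for LLC GSDMD minus parental, ANXA2 0.0085 for BxPC3 minus HT29. With quantile normalization they were Vps37a 0.050 with siCTR, Anxa6 0.011, Dysf 0.16 and Smpd1 0.0045 in noko, Chmp1b 0.00097 in p65ko. Further ones were Dysf 0.13, Vps37a 0.11 and Vps4a 0.071 in NIH3T3 GSDMD, Anxa2 0.030 with NIH3T3 digitonin, ANXA2 -0.063, CHMP5 0.19, IST1 0.0017 and SYT7 0.14 in BxPC3. With the length trend removed they were Anxa11 0.095 and Chmp3 0.024 with siCTR, Anxa11 0.024 and Anxa4 0.050 with siPKC, Anxa4 0.092, Anxa6 0.10, Dysf 0.021 and Vps36 0.082 in noko, Anxa4 0.11, Chmp3 0.035, Pdcd6ip 0.059, Vps36 0.030 and Vps4a 0.0028 in p65ko. Further ones were Anxa1 0.10, Anxa11 0.084, Anxa7 0.023, Chmp5 0.00049, Pdcd6ip 0.0055 and Vps4a 0.14 in NIH3T3 GSDMD, Pdcd6 0.067 and Pdcd6ip -0.028 with NIH3T3 digitonin, Anxa7 0.11 and Chmp1b 0.11 in LLC GSDMD, Anxa7 0.14 and Chmp1b 0.030 for LLC GSDMD minus parental.

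Counts of members that moved by over 1.5 times were, for MLKL cells (11), 18 with quantile normalization and 5 with own libraries. NIH3T3 GSDMD (32) gave 20 with the length trend removed, which also removes a library's shift, and LLC digitonin (22) gave 13 with own libraries. MLKL minus parental (6) gave 10 with quantile normalization. Calcium-free minus complete medium (4) gave 2 with centring, 7 with quantile normalization and 2 with no filter. siPKC minus siCTR (4) gave 1 with own libraries. p65ko minus noko (1) gave 3 with centring, 2 with own libraries and 3 with the length trend removed. The cause was not tested. Leaving out 1 library at a time gave 6 to 10 in MLKL cells, 1 in LLC MLKL cells, 16 to 21 in HT29 cells, 2 to 4 for calcium-free minus complete medium and 7 to 10 for untreated cells in these media.

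Replicate numbers did not pair the libraries (correlation of same-numbered deviations -0.038 to 0.094 over 13 comparisons, with 2 pairs each). With the replicate number as a block 13 members passed in MLKL cells, 33 in NIH3T3 GSDMD, 30 in LLC GSDMD and 22 in HT29 cells, and no count of the 23 moved by over 1.5 times. The block could not be fitted for LLC MLKL cells, nor siPKC without its lone treated library or on its own libraries.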
